A study of Mus musculus with 192 samples.

Results

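The genes described here are 9 targets of the transcription factor Nrf2 that protect cells from oxidants: Slc7a11, Gclc, Gclm, Txnrd1, Srxn1, Prdx1, Hmox1, Nqo1 and Sqstm1. They were taken by symbol from the 23481 genes of the deposited table, as a list chosen for shared function, and followed over all 64 groups of the series. The list was chosen with earlier results of these data known, so its counts beside those of all tested genes are not an independent test. All 9 were present and all 9 passed the filter on low counts, as did 4720 of the 23481 genes.

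Nrf2, encoded by Nfe2l2, is a transcription factor whose protein is held in the cytoplasm and marked for degradation by Keap1. Oxidants and electrophiles modify cysteines of Keap1, Nrf2 then accumulates, pairs with a small Maf protein in the nucleus and binds antioxidant response elements in the promoters and enhancers of its targets. In macrophages and dendritic cells this program runs beside the response to microbes: phagocytosis and the oxidative burst produce oxidants, and itaconate, made by Acod1 (listed as Irg1 in the deposited table), can modify Keap1.

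The study exposed bone marrow-derived dendritic cells from female C57BL/6J mice aged 6 to 8 weeks to 7 ligands of innate immune sensors. Cells of every group, Ctrl included, had been grown with 15 ng/mL GM-CSF in a medium that contained 55 µM β-mercaptoethanol, a thiol that keeps cysteine reduced in culture. After 6 hours with PAM, LPS (lipopolysaccharide), HMW, Zymosan (given in the labels as zymosan depleted), SeV, cGAMP (3',3'-cGAMP) or CpGB alone, in 21 pairs or in 35 triplets, unique molecular identifiers (UMIs, 1 per captured RNA molecule) were counted per gene, with 3 libraries in each of the 64 groups. The labels do not say whether the 3 libraries of a group are separate animals or cultures, so p-values measure only the spread between these libraries.

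Libraries held 46564 to 610234 UMIs (median 171616.5), and the 3 Ctrl libraries were shallow, with 61823 to 89530. Levels are CPM (counts scaled to a common library total) after TMM scaling, as mean ± SD of 3 libraries. Dendritic cell markers were present in every group, with a summed level of 4108 to 5256.5 CPM in the groups with Zymosan and 4227 to 5619 CPM in the others; 10 of 10 were in the table and H2-Ab1 was the most abundant. Macrophage markers, led by Lyz2, summed to 8378 to 12142 CPM with Zymosan and 8362 to 14029 CPM without. Neutrophil markers summed to 620 to 948 CPM with Zymosan and 603 to 1046 CPM without, and mast cell, lymphoid and erythroid markers summed to at most 19.9 CPM in any group. In bulk RNA, fewer cells of a type and less RNA per cell cannot be told apart.

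Among all libraries, 4 were closer to another group than to the other libraries of their own by a correlation difference above 0.04, over the 1000 most variable genes with the 9 genes left out. All 4 are replicate 1 of a triplet. The library labelled Zymosan + SeV + cGAMP was closest to HMW + cGAMP (r = 0.9535, against 0.9025 with its own group), and that labelled HMW + SeV + cGAMP was closest to Zymosan + cGAMP (0.944 against 0.901). The library labelled HMW + cGAMP + CpGB was closest to SeV + CpGB (0.953 against 0.900), and that labelled HMW + SeV + CpGB to cGAMP + CpGB (0.962 against 0.915). Labels were kept as deposited, and the split by Zymosan, the counts of calls and the average effects are also given without the 4 libraries. Calls per gene, values on single backgrounds and correlations over groups use all libraries. Their effect on single groups was large: in the library labelled Zymosan + SeV + cGAMP, 8 of the 9 genes were below both other libraries of the group (Hmox1 at 151 CPM against 657 and 572), and in that labelled HMW + SeV + cGAMP, 7 of 9 were above both (Hmox1 at 579 CPM against 249 and 184). These libraries go against their labels, so the means of their groups may not be those of the named condition. Whether labels were exchanged was not tested.

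The promoters of 7 of the 9 genes were in the RefSeq table of GRCm38.p6 (250 bases before to 50 after each start, 9 promoters in all), the build that matches the mm10 of the deposited counts. Hmox1 and Gclc were not among them. On either strand, 3 motifs were searched: the core of the antioxidant response element, TGACNNNGC, found in 12.4% of all 32851 promoters; the AP-1 type site TGACTCA, found in 5.2%; and the amino acid response element TGATGCAA, found in 0.895%. These windows are shown because they hold at least 1 of these motifs and the motifs differ between genes. Capitals mark the match, which for a match on the reverse strand is printed as its reverse complement, and each window is 5′ to 3′ along the strand of its gene.
Slc7a11, chr3:50443641-50443691, minus strand: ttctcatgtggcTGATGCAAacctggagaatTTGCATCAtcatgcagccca
Gclm, chr3:122245411-122245443, plus strand: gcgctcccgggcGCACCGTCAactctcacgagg
Txnrd1, chr10:82859102-82859134, plus strand: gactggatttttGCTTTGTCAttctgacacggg
Srxn1, chr2:152105410-152105497, plus strand: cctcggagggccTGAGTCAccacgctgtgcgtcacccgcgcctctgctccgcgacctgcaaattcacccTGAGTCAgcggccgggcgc
Prdx1, chr4:116685350-116685486, plus strand: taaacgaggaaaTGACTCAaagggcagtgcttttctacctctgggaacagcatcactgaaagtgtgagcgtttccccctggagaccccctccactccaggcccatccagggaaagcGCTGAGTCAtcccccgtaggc

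The Slc7a11 window holds 2 amino acid response elements on opposite strands, 66 and 47 bases before the start, and no antioxidant response element core. Cores were found in 4 of the 7 genes: Gclm, the second of 3 Txnrd1 promoters, Prdx1, and Srxn1, where the core lies 29 bases after the start and is not shown. In Prdx1 the core at 133 bases before the start overlaps 1 of its 2 AP-1 type sites, and Srxn1 has 2 such sites 102 and 45 bases before its start. The windows of Nqo1 and Sqstm1 hold none of the 3 motifs. A match describes letters only, and sequence further away was not searched.

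Across the 64 groups, presence of Zymosan divided the levels of Sqstm1, Hmox1 and Prdx1 almost completely. Of the 22 groups with Zymosan, 21 had more Sqstm1 than any of the 42 groups without it, 20 had more Hmox1 and 19 more Prdx1; without the 4 libraries that stand apart these counts were 22, 21 and 20. The split was partial for Gclm (13 groups above all others), Srxn1 (11), Txnrd1 (10), Nqo1 (10) and Gclc (5). Slc7a11 was the exception: no group with Zymosan exceeded PAM + HMW, its highest group, and its median was 475 CPM with Zymosan and 421 CPM without.

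**Figure D1:**
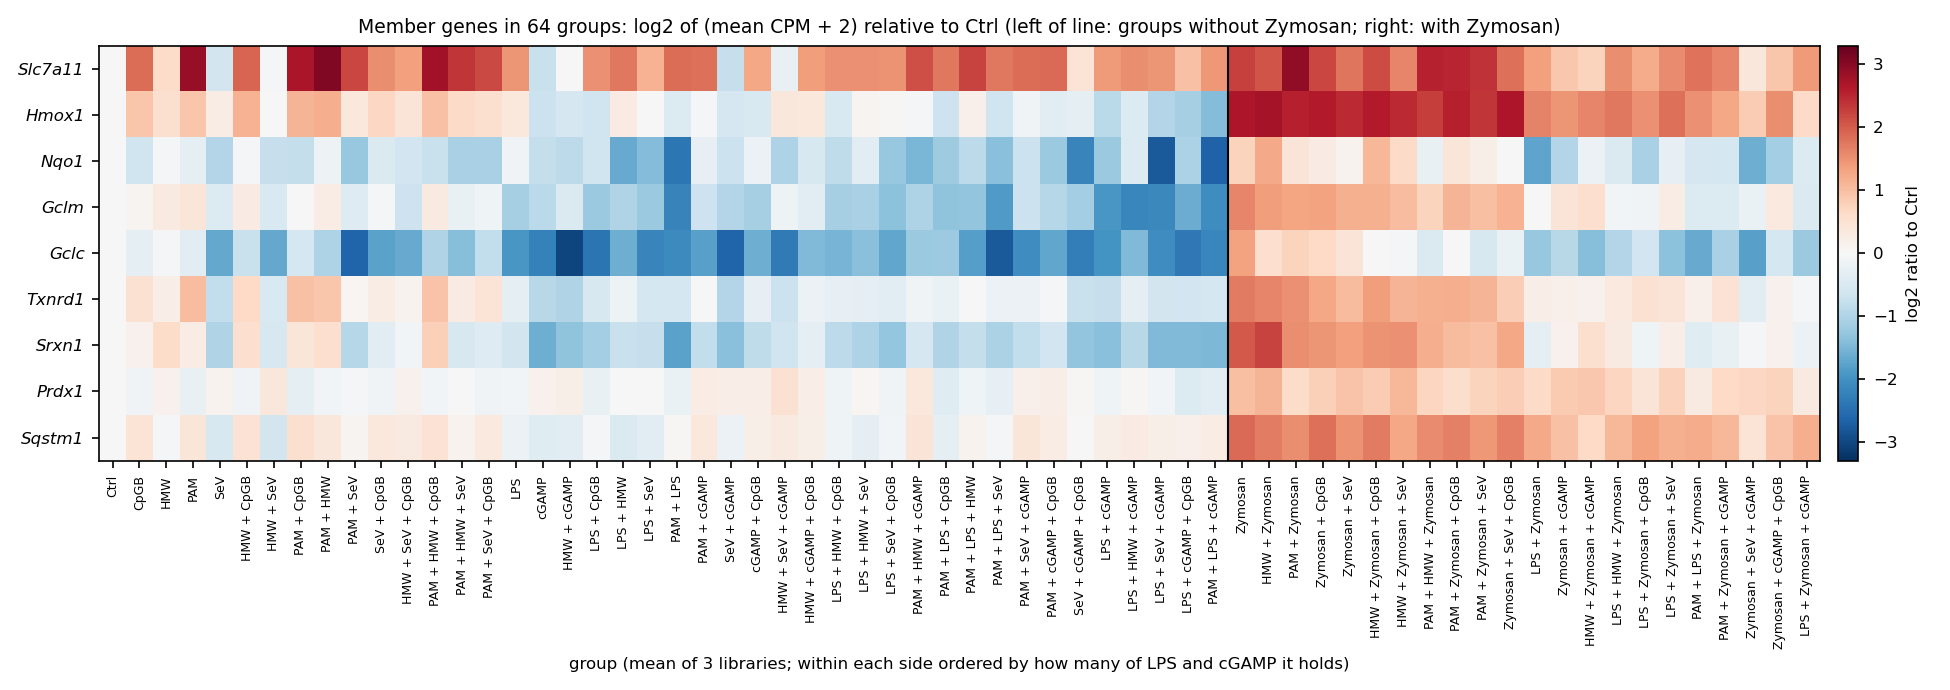
Heatmap of the 9 genes (rows) in the 64 groups (columns, means of 3 libraries), coloured by log2 of (mean CPM + 2) relative to Ctrl, red higher and blue lower; groups without Zymosan lie left of the vertical line and groups with Zymosan right of it. Red fills most of the right side for Hmox1, Sqstm1 and Prdx1, Slc7a11 is red on both sides, and on each side columns that hold LPS, cGAMP or both, which stand to the right, are on the whole less red or more blue for Gclm and Srxn1.

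Against Ctrl, the 9 genes gave 567 tests over 63 conditions, and a call needed an adjusted p under 0.05 and a log2 fold change of at least 1. Of these, 123 were called higher (21.7%, against 14.3% of all tested genes) and 74 lower (13.1%, against 9.03%). The lower count was 43 without Ctrl replicate 3, 42 without replicate 3 of all groups, 44 without replicate 2 of all groups and 39 with no filter on low counts. With Zymosan, 87 of 198 tests were called higher and 5 lower, where all tested genes gave 13.6% and 8%. Without Zymosan, 36 of 369 were called higher and 69 lower, where all tested genes gave 14.6% and 9.57%. The 5 lower calls with Zymosan were all of Gclc, and 32 of the 36 higher calls without it were of Slc7a11. The comparisons share the 3 shallow Ctrl libraries, and the split depended on the scaling: 62.4% of calls were higher with TMM, 53.9% with RLE size factors (110 higher, 94 lower) and 41.9% with total counts alone (88 higher, 122 lower). All tested genes gave 12.3% higher and 12% lower with RLE, and 10.4% and 16.9% with total counts. These scalings moved the median of all genes by -0.16 and -0.36 log2 against Ctrl. With Zymosan the counts were 76 higher and 8 lower with RLE and 61 and 9 with total counts, and without it 34 and 86 with RLE and 27 and 113 with total counts. Without the 4 libraries that stand apart the counts were 93 higher and 4 lower with Zymosan and 38 and 69 without it.

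With single ligands, Zymosan raised 7 of the 9 genes past that threshold, where 4.43% of all tested genes were called higher. All 3 Zymosan libraries lay above all 3 Ctrl libraries for each of the 9 genes, and the median log2 fold change of the 9 was 1.71, against 0.02 for all tested genes. PAM raised 2 (8.01% of all tested genes), LPS raised 1 and lowered 2 (14.6% and 9.6%), CpGB raised 1 (10.8%), cGAMP lowered 2 (5.91%) and SeV lowered 1 (5.13%). HMW called none, where 0.953% of all tested genes were called higher and 0.0212% lower.

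**Figure D2:**
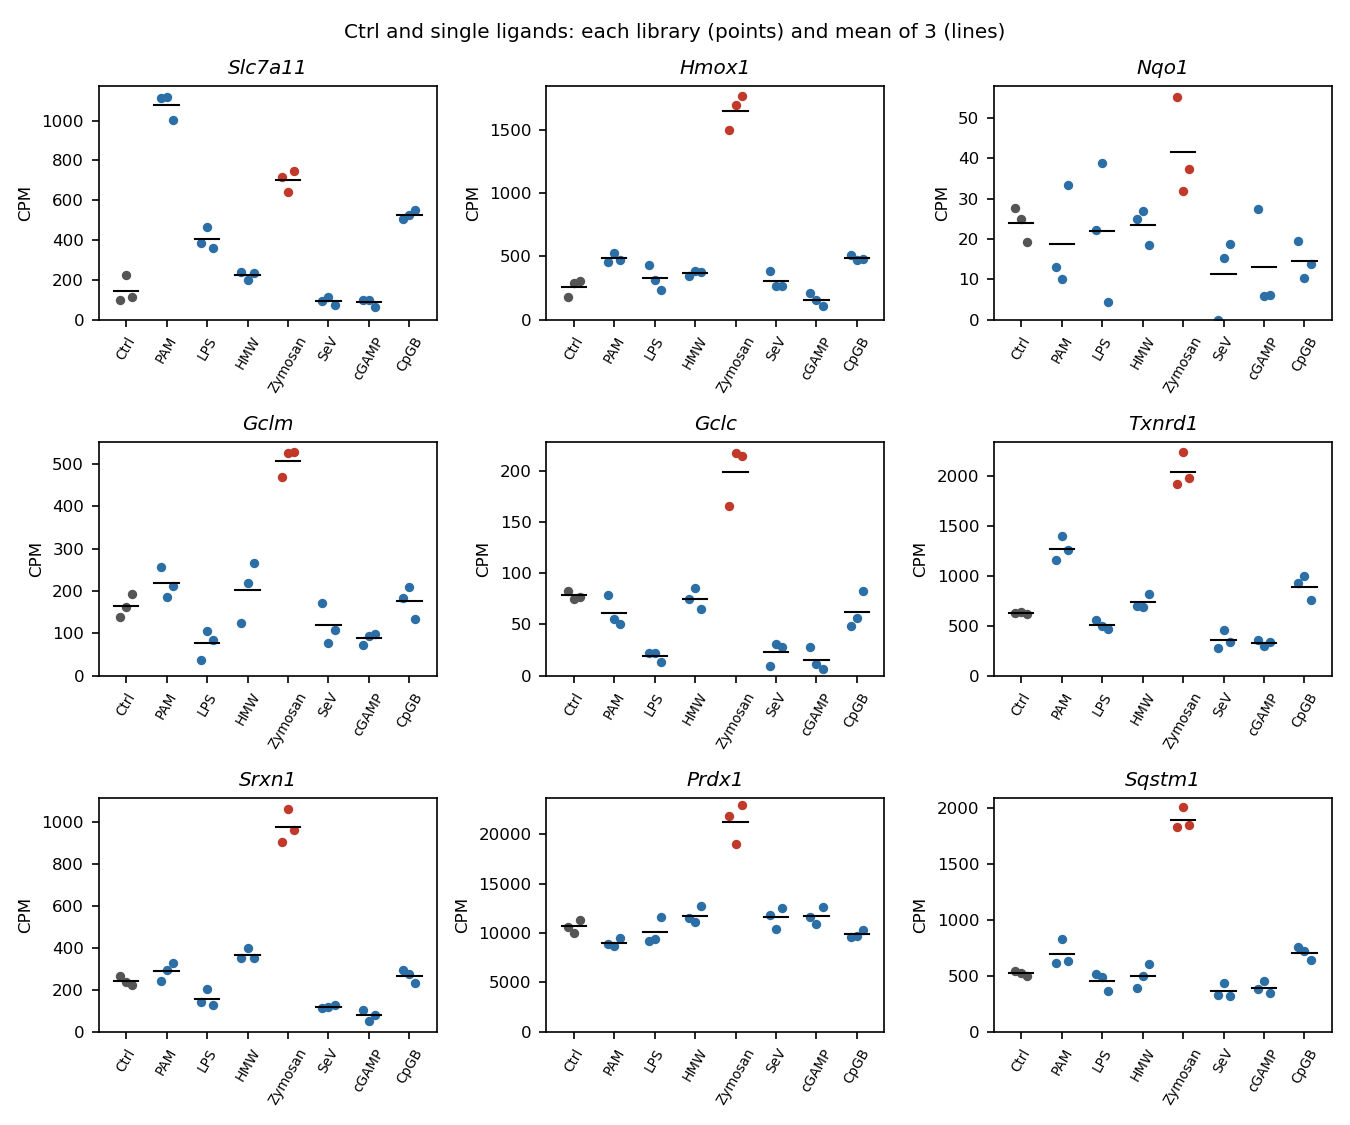
Level of each of the 9 genes (CPM, linear axis from 0) in Ctrl (grey), Zymosan (red) and the other 6 single ligands (blue), with 1 point per library and a line at the mean of 3. Zymosan is highest in every panel except Slc7a11, where PAM is highest at 1081 CPM and Zymosan next at 701 CPM.

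Slc7a11 encodes xCT, the subunit of the cystine/glutamate antiporter that imports cystine, the precursor of cysteine for glutathione; the gene lies at chr3:50364936-50499087. It read 97.0, 224.5 and 115 CPM in the 3 Ctrl libraries, 1115, 1121 and 1006 with PAM, 718, 640 and 746 with Zymosan, 505, 526 and 553 with CpGB and 387, 466 and 358 with LPS. None of these 5 groups overlapped another, so the order PAM, Zymosan, CpGB, LPS, Ctrl was larger than the spread. The log2 fold change against Ctrl was 2.90 ± 0.23 (SE) with PAM (adjusted p = 3.82e-25), 2.28 ± 0.25 with Zymosan (7.92e-15), 1.87 ± 0.26 with CpGB (1.59e-10) and 1.47 ± 0.27 with LPS (1.01e-06). HMW (224 ± 23 CPM, SD), SeV (95.2 ± 20.0) and cGAMP (87.2 ± 22.4) overlapped Ctrl (146 ± 69) and were not called. Over all conditions Slc7a11 was called higher in 50 of 63 and lower in none, the most higher calls of the 9 genes. Its lowest groups were SeV + cGAMP (85.3 CPM), cGAMP and SeV, and its highest were PAM + HMW (1234 CPM), PAM + Zymosan (1121) and PAM.

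Gclc and Gclm encode the catalytic and the modifier subunit of glutamate-cysteine ligase, which makes the first and rate-limiting step of glutathione synthesis. Gclc, at chr9:77754535-77794489, read 83.1, 74.8 and 76.8 CPM in Ctrl and 166, 218 and 215 with Zymosan, its highest group, a log2 difference of 1.37 ± 0.39 (adjusted p = 0.00926). It read 22.3, 22.2 and 13.4 CPM with LPS, 27.5, 11.7 and 6.14 with cGAMP and 9.56, 30.7 and 28.1 with SeV, all below every Ctrl library. Those differences were -2.02 ± 0.58 (adjusted p = 0.00311), -2.46 ± 0.64 (0.00155) and -1.65 ± 0.57 (0.0261). Gclc had the most lower calls of the 9 genes, 38 of 63. It rests on 1326 UMIs over all libraries and the median SD within a group was 41.2% of the mean, and several of its calls were lost in alternatives. The Zymosan call was lost without Ctrl replicate 3 (adjusted p = 0.0534) and with DESeq2 (0.0634). It was also lost without replicate 2 (0.105) or 3 (0.113) of all groups. The LPS call was lost without replicate 3 of all groups (0.0602). The SeV call was lost without any 1 Ctrl library (0.0715 to 0.0912) or any 1 replicate of all groups (0.0994 to 0.221). Leaving out SeV replicate 1 (0.116) or 3 (0.0804), or using no filter (0.165), also lost the SeV call.

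Gclm, at chr3:122245487-122267215, was also highest with Zymosan alone (469, 525 and 527 CPM, against 138.5, 162 and 192.03 in Ctrl), with a log2 difference of 1.61 ± 0.29 (adjusted p = 6.27e-06). With LPS it read 37.2, 105 and 85.0 CPM, below Ctrl in every library, and the difference was -1.07 ± 0.39 (adjusted p = 0.0244). That call for LPS was lost without LPS replicate 1 (-0.73, adjusted p = 0.174), without LPS replicate 3 (0.0669), without Ctrl replicate 2 (0.0725) and without Ctrl replicate 3 (0.192). It was also lost without replicate 1 (0.129), 2 (0.0542) or 3 (0.189) of all groups and with no filter on low counts (0.139). Without 6 libraries nearer another group by over 0.02 in correlation (-0.99), or without Zymosan + SeV replicate 2 (-0.96), it missed the fold threshold. Its lowest groups all held LPS: PAM + LPS (34.1 ± 12.1 CPM), LPS + HMW + cGAMP and LPS + SeV + cGAMP. Gclm was called higher in 8 conditions, all with Zymosan, and lower in 20, all without it.

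Txnrd1, Srxn1 and Prdx1 belong to the thioredoxin system. Txnrd1 (chr10:82833951-82897724) encodes the cytosolic selenoenzyme that reduces thioredoxin with NADPH. It read 623, 636 and 614 CPM in Ctrl, 1914, 2240 and 1973 with Zymosan and 1161, 1398 and 1256 with PAM, and both groups were clear of Ctrl and of each other. The log2 differences were 1.71 ± 0.18 (adjusted p = 5.54e-15) and 1.03 ± 0.19 (3.34e-06); the PAM value fell under the fold threshold with RLE size factors (0.89), total counts (0.84), DESeq2 (0.89) and after thinning to the smallest total (0.60, adjusted p = 0.0203). LPS (509 ± 45 CPM), SeV (354 ± 89) and cGAMP (331 ± 30) lay below every Ctrl library. SeV and cGAMP overlapped each other and passed the test but not the fold threshold, at -0.81 ± 0.23 and -0.93 ± 0.23.

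Srxn1 (chr2:152105524-152111376) encodes sulfiredoxin, which restores peroxiredoxins whose cysteine has been over-oxidised. It read 263, 237 and 221 CPM in Ctrl, 902, 1062 and 961 with Zymosan and 101, 52.6 and 79.8 with cGAMP, 3 groups with no overlap. The log2 difference was 2.03 ± 0.22 with Zymosan (adjusted p = 1.04e-14) and -1.66 ± 0.34 with cGAMP (2.96e-05). Its highest group was HMW + Zymosan (1374, 1086 and 956 CPM) and its lowest PAM + LPS (91.1, 48.1 and 67.4), a 16.5-fold range of group means.

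Prdx1 (chr4:116685599-116700000) encodes a peroxiredoxin that reduces hydrogen peroxide, and it had 430025 UMIs over the series, the most of the 9 genes. It read 10624, 10028 and 11339 CPM in Ctrl and 21883, 19050 and 22976 with Zymosan, with no overlap. The log2 difference was 0.998 ± 0.12 (adjusted p = 3.92e-12), just short of the fold threshold. PAM, at 9020 ± 433 CPM, was below every Ctrl library without passing the test, and the other 5 ligands overlapped Ctrl. Prdx1 was called in HMW + Zymosan and HMW + Zymosan + SeV. Its range over group means was the narrowest of the 9, 3.00-fold, from 7742 CPM in LPS + cGAMP + CpGB to 23197 CPM in HMW + Zymosan.

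Hmox1 encodes heme oxygenase 1, which cleaves heme into biliverdin, iron and carbon monoxide; it lies at chr8:75093618-75100593. It read 180, 287 and 307 CPM in Ctrl and 1500, 1702 and 1768 with Zymosan, every library above every library of the other 7 groups. Its log2 fold change of 2.66 ± 0.24 (adjusted p = 1.32e-20) was the largest of the 9 genes for Zymosan. CpGB (490 ± 22 CPM) and PAM (486 ± 36) were next and overlapped each other. They passed the test but not the fold threshold, at 0.88 ± 0.27 and 0.89 ± 0.27. The 3 higher calls without Zymosan were HMW + CpGB, PAM + CpGB and PAM + HMW, with log2 differences of 1.11 ± 0.26, 1.11 ± 0.27 and 1.16 ± 0.26. The 4 lowest groups, down to PAM + LPS + cGAMP (112, 85.8 and 87.5 CPM), all held LPS and cGAMP.

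Nqo1, a quinone reductase at chr8:107388225-107403205 that is often used as a readout of Nrf2, was the least abundant, with 540 UMIs over all libraries. It read 27.7, 24.9 and 19.2 CPM in Ctrl and 55.2, 32.0 and 37.3 with Zymosan, which did not overlap, but the difference was not called (log2 0.75 ± 0.77, adjusted p = 0.668). With SeV its 3 libraries (0, 15.3 and 18.8 CPM) lay below Ctrl, and the other 5 ligands overlapped Ctrl. The median SD within a group was 68.7% of the mean. Its 1 call in 63 conditions, lower in LPS + SeV + cGAMP, rests on 1 UMI in that group against 6 in Ctrl.

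Sqstm1 encodes p62, an autophagy receptor that also binds Keap1 and can divert it to degradation; it lies at chr11:50200152-50210820. It read 540, 524 and 499 CPM in Ctrl and 1831, 2009 and 1847 with Zymosan, with a log2 difference of 1.87 ± 0.17 (adjusted p = 6.24e-19). CpGB (708 ± 60 CPM) and PAM (693 ± 118) were above every Ctrl library, and SeV (360 ± 66) and cGAMP (393 ± 54) below, none of them called. All 18 of its calls were higher and all 18 were with Zymosan.

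The average effect of a ligand compares 22 groups without it (Ctrl, 6 single ligands and 15 pairs) with the same 22 after the ligand was added, so Ctrl carries little weight; a call needed an adjusted p under 0.05 and a mean log2 change of at least 0.5. Adding Zymosan raised 8 of the 9 genes and lowered none, where 8.58% of all tested genes were called higher and 3.81% lower. The median of the 9 was 1.09 log2, against -0.03 for all tested genes. The mean change was 1.84 ± 0.047 (SE) log2 for Hmox1, a 3.58-fold rise (adjusted p = 1.17e-96), 1.32 ± 0.035 for Sqstm1, 1.31 ± 0.052 for Srxn1, 1.18 ± 0.068 for Gclm, 1.09 ± 0.12 for Gclc, 0.86 ± 0.039 for Txnrd1 and 0.74 ± 0.026 for Prdx1. Each of these 7 was higher with Zymosan on 22 of 22 backgrounds. Nqo1 followed at 0.56 ± 0.19 (adjusted p = 0.0124, higher on 15 of 22), and that call was lost without replicate 3 of all groups (0.40, adjusted p = 0.241) and with only single ligands as backgrounds (0.35). Without the 4 libraries that stand apart the 8 calls held, from 0.51 for Nqo1 to 1.85 for Hmox1.

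Slc7a11 changed by 0.49 ± 0.044 log2 with Zymosan (adjusted p = 4.83e-22), just under the threshold, with 13 backgrounds higher and 9 lower. The change was 2.37 log2 on SeV alone and -0.53 on PAM + HMW. Its mean was 0.98 on the 6 single-ligand backgrounds and 0.18 on the 15 pairs. PAM was the ligand that raised Slc7a11 on average, by 1.17 ± 0.041 log2 (2.25-fold, adjusted p = 1.42e-72), with a higher mean on 22 of 22 backgrounds and all 3 libraries above on 16. The change ran from 0.017 on LPS + cGAMP to 2.88 on Ctrl, with a mean of 1.63 on single ligands and 0.87 on pairs. It was the only one of the 9 genes that PAM called, where 6.53% of all tested genes were called higher and 5.89% lower.

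With LPS and cGAMP the called genes moved down. LPS lowered 6 of the 9 on average and raised none (11% of all tested genes lower, 14.9% higher): the mean log2 change was -1.32 ± 0.079 for Gclm (lower on 22 of 22 backgrounds), -0.95 ± 0.059 for Srxn1, -0.94 ± 0.20 for Nqo1, -0.85 ± 0.14 for Gclc, -0.79 ± 0.055 for Hmox1 and -0.56 ± 0.041 for Txnrd1. Gclc and Txnrd1 were each higher with LPS on 5 of 22 backgrounds, up to 1.55 and 0.67 on HMW + cGAMP, and Hmox1, Srxn1 and Nqo1 on 3 each. Slc7a11 was not called with LPS: it changed by 0.17 ± 0.044 (adjusted p = 0.000386), from -1.15 on PAM + Zymosan to 2.22 on SeV + cGAMP, and by 0.47 over single-ligand backgrounds. cGAMP lowered 7 and raised none (10.3% lower, 14.3% higher), with Gclc at -0.99 ± 0.14, Hmox1 at -0.97 ± 0.054 and Srxn1 at -0.90 ± 0.058, then Gclm, Txnrd1, Slc7a11 and Nqo1 at -0.84, -0.73, -0.67 and -0.61. Nqo1 was higher with cGAMP on 6 of 22 backgrounds (up to 1.29 on LPS + Zymosan), Gclc on 5 (up to 0.60), Srxn1 on 3, Gclm and Slc7a11 on 2 each, and Hmox1 and Txnrd1 on 1 each. For Hmox1 and Gclm, HMW + SeV was among these backgrounds, through replicate 1 of HMW + SeV + cGAMP, which stands apart. The other libraries of that group averaged 216 CPM for Hmox1, against 257 without cGAMP, and 71.9 CPM for Gclm, against 115. The cGAMP call for Nqo1 was lost without replicate 1 (adjusted p = 0.0536) or replicate 2 (0.0876) of all groups, and with only pairs (0.0613) or only single ligands (-0.52, 0.222) as backgrounds. Without the 4 libraries that stand apart, the 6 LPS calls ran from -0.56 for Txnrd1 to -1.32 for Gclm and the 7 cGAMP calls from -0.64 for Nqo1 to -0.99 for Hmox1. Prdx1 and Sqstm1 were called with neither ligand: Prdx1 changed by -0.25 with LPS and 0.07 with cGAMP, and Sqstm1 by -0.17 and -0.12.

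SeV lowered Gclc (-0.65 ± 0.13 log2, and -0.63 without the 4 libraries) and raised none of the 9 genes, where 2.58% of all tested genes were called lower and 7.9% higher. With only pairs as backgrounds the Gclc value was -0.39 and not called. The median of the 9 with SeV was -0.32 log2, against -0.036 for all tested genes. Slc7a11, Srxn1, Txnrd1 and Gclm passed the test with SeV but not the fold threshold, at -0.36, -0.35, -0.32 and -0.29. Hmox1 and Sqstm1 also passed it, at -0.14 and -0.15, Nqo1 did not (-0.38), and Prdx1 was at 0.064. HMW and CpGB called none of the 9. HMW called 0.297% of all tested genes higher and 0.0847% lower, and CpGB called 6.12% higher and 5.06% lower. The medians of the 9 genes were 0.12 and 0.08 log2, and the largest values were 0.31 ± 0.054 for Srxn1 with HMW and 0.46 ± 0.044 for Slc7a11 with CpGB, both positive.

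**Figure D3:**
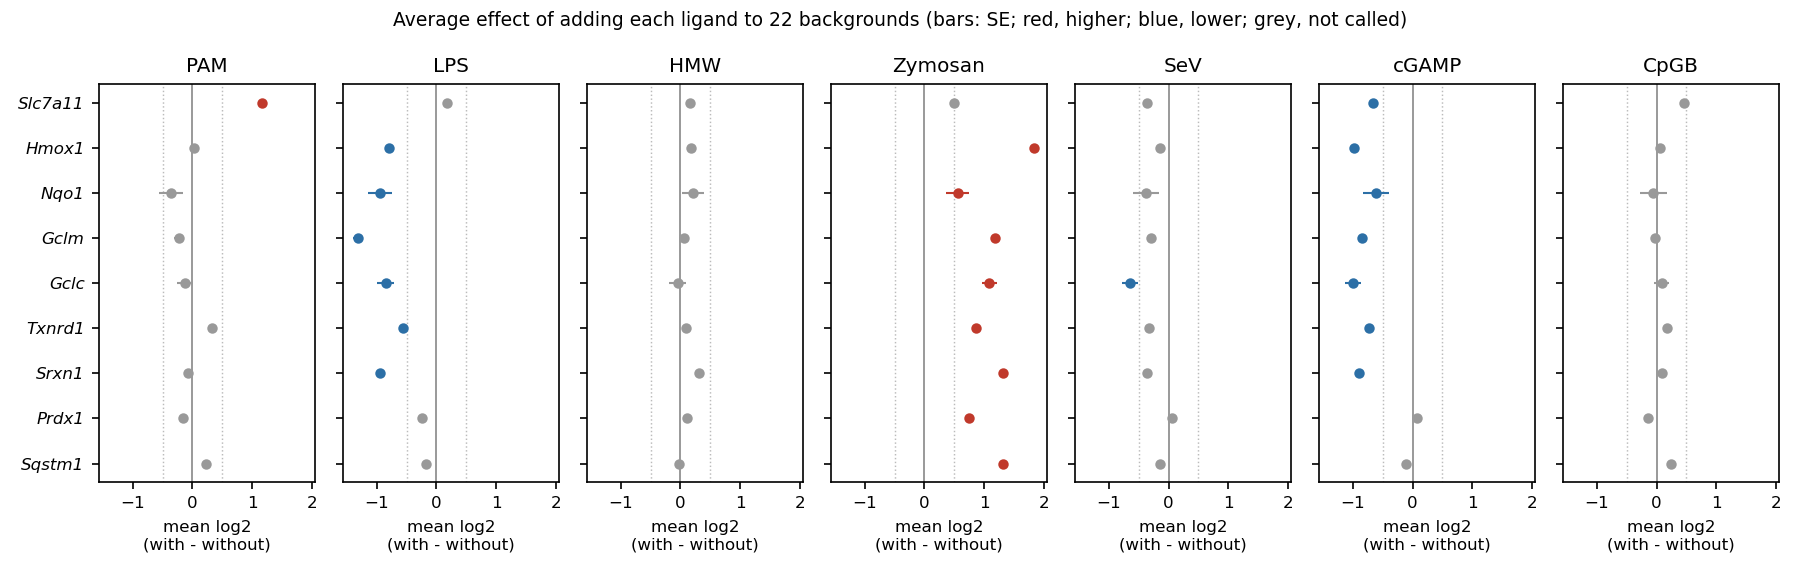
Mean log2 change (points, with SE bars) of each of the 9 genes when each of the 7 ligands is added to 22 backgrounds, 1 panel per ligand; red is called higher, blue called lower, grey not called, and dotted lines mark 0.5 and -0.5. Zymosan has 8 red points, LPS 6 and cGAMP 7 blue points, and PAM a single red point for Slc7a11.

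Adding a ligand to Zymosan asks whether the raised levels persist. Adding LPS lowered 6 of the 9 genes by at least 1 log2 relative to Zymosan alone, where 8.22% of all tested genes were called lower, and the median of the 9 was -1.51. The 6 include Nqo1, which had 3 UMIs in that pair. Adding cGAMP also lowered 6 (6.86%, median -1.39). Adding SeV lowered 1, Gclc (1.53%). PAM, HMW and CpGB lowered none past that threshold, where 1.1%, 0.106% and 3.24% of all tested genes were called lower.

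Srxn1, Gclc, Txnrd1, Hmox1 and Gclm fell by at least 1 log2 with both ligands. Srxn1 was 902, 1062 and 961 CPM with Zymosan and 195, 214 and 168 CPM with LPS + Zymosan, below all 3 Ctrl libraries. The difference was -2.33 ± 0.19 log2 (adjusted p = 4.58e-24), and with Zymosan + cGAMP, at 212, 320 and 266 CPM, it was -1.86 ± 0.19 (2.18e-17). Gclc went from 166, 218 and 215 CPM to 51.7, 31.2 and 11.6 with LPS (-2.66 ± 0.38) and 32.7, 51.2 and 38.7 with cGAMP (-2.28 ± 0.37), also below Ctrl. Txnrd1 went from 1914, 2240 and 1973 CPM to 753, 647 and 769 with LPS (-1.51 ± 0.16) and 710, 717 and 673 with cGAMP (-1.55 ± 0.16). These levels were still above every Ctrl library (at most 636 CPM).

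Hmox1 was 862, 647 and 925 CPM with LPS + Zymosan (-1.05 ± 0.17 log2 against Zymosan) and 571, 781 and 765 CPM with Zymosan + cGAMP (-1.22 ± 0.18), all above the highest Ctrl library of 307. Gclm fell from 507 CPM with Zymosan to 166 ± 19 with LPS (-1.62 ± 0.24) and 221 ± 14 with cGAMP (-1.20 ± 0.24), against 164 ± 27 in Ctrl. Sqstm1 stood at 1245 ± 46 CPM with LPS and 1017 ± 56 with cGAMP, changes of -0.61 ± 0.14 and -0.90 ± 0.14 that passed the test and not the fold threshold. Prdx1 was 16424 ± 1477 CPM with LPS (-0.38 ± 0.12) and 19487 ± 1653 with cGAMP, which was not called, both above all Ctrl libraries. Slc7a11 fell with cGAMP, to 245, 326 and 237 CPM (-1.39 ± 0.19), and by less than the fold threshold with LPS (-0.92 ± 0.17). Nqo1 had 3 UMIs in LPS + Zymosan and 19 with Zymosan alone, and no fold change is given for it.

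**Figure D4:**
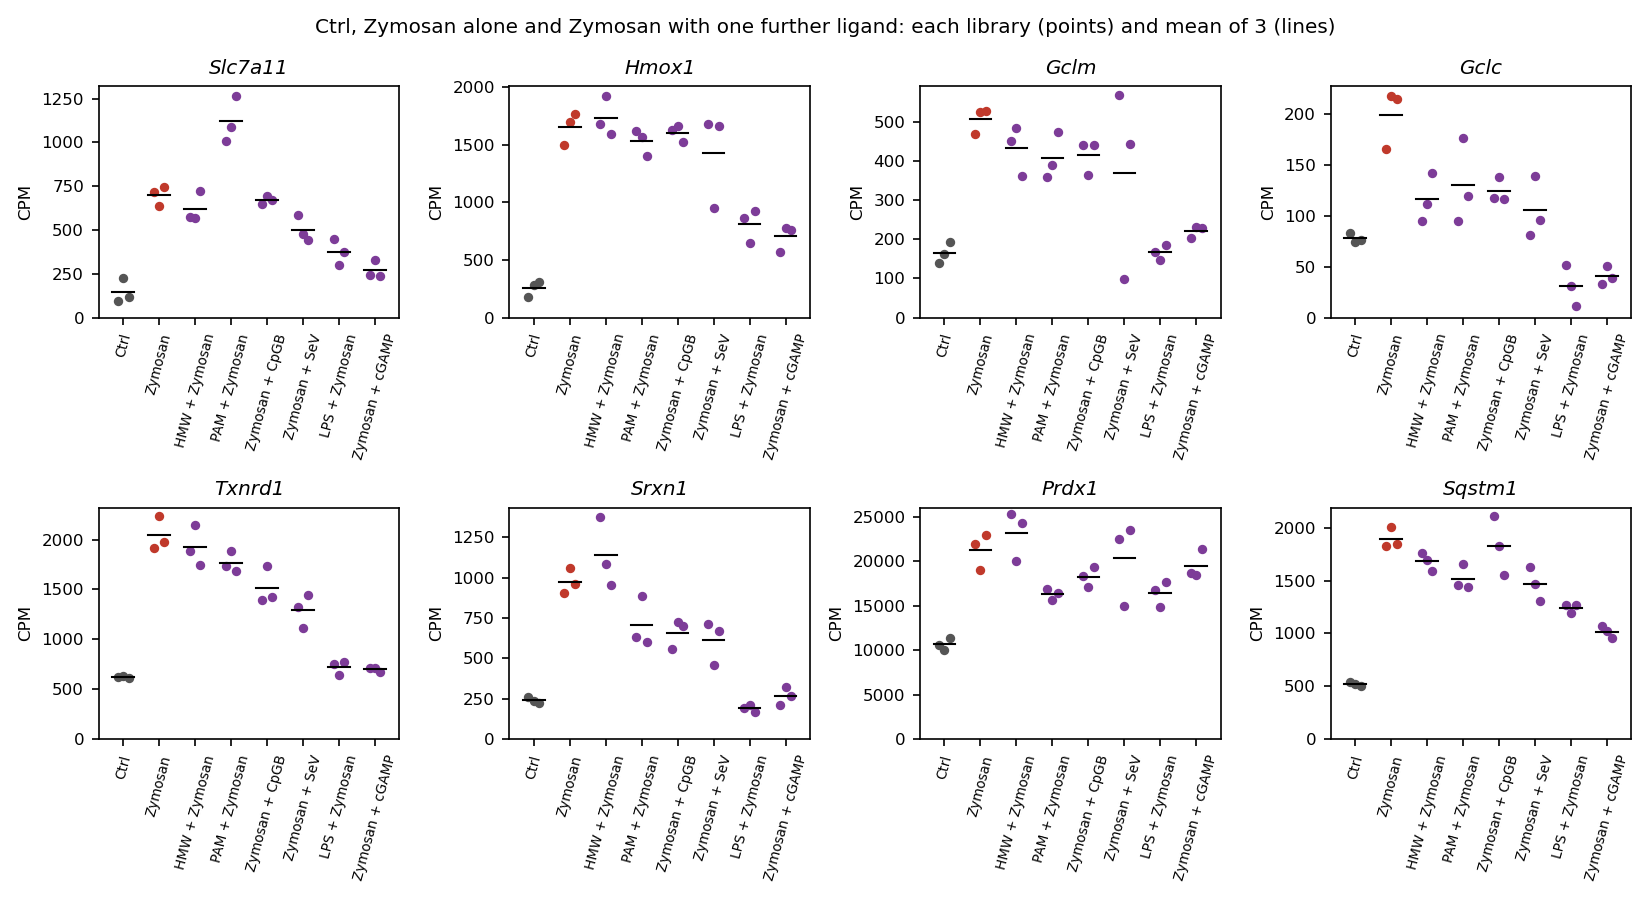
Level (CPM, linear axis from 0) of 8 of the genes in Ctrl (grey), Zymosan alone (red) and Zymosan with 1 further ligand (purple), with 1 point per library and a line at the mean of 3; Nqo1 is left out for its low counts. LPS and cGAMP, at the right, bring Srxn1, Gclc and Txnrd1 far below Zymosan alone, and Sqstm1 and Prdx1 remain above Ctrl in every pair. In the Zymosan + SeV pair replicate 2, the shallowest library, is low for Gclm (99.4 CPM against 568 and 442).

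A pair interaction is the log2 fold change of the pair against Ctrl less the sum of the log2 fold changes of its 2 ligands alone, and 0 means that they add up. Of 189 tests (21 pairs, 9 genes), 18 were called negative and 1 positive, where 3.5% and 1.08% of all tested genes were called. The interactions use the 3 Ctrl libraries and share single-ligand groups. PAM + LPS was negative for 5 of the 9 genes (Slc7a11, Hmox1, Txnrd1, Srxn1 and Gclm), LPS + Zymosan for 4 and PAM + Zymosan for 4, where 5.87%, 2.61% and 3.2% of all tested genes were called negative.

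Slc7a11 had 6 of the 18 negative calls, and they are all 6 pairs of the 4 ligands that raised it alone. The interaction was -2.54 ± 0.30 log2 for PAM + LPS (adjusted p = 1.26e-12), -2.40 ± 0.31 for LPS + Zymosan, -2.21 ± 0.29 for PAM + Zymosan, -2.05 ± 0.30 for PAM + CpGB, -1.93 ± 0.31 for Zymosan + CpGB and -1.80 ± 0.32 for LPS + CpGB. In levels, PAM + Zymosan read 1011, 1090 and 1264 CPM, overlapping PAM alone, and Zymosan + CpGB read 648, 697 and 674 CPM, overlapping Zymosan alone. PAM + LPS read 674, 342 and 560 CPM, below every library of PAM alone and overlapping LPS alone. LPS + Zymosan read 448, 299 and 376 CPM, below every Zymosan library and also overlapping LPS alone.

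**Figure D5:**
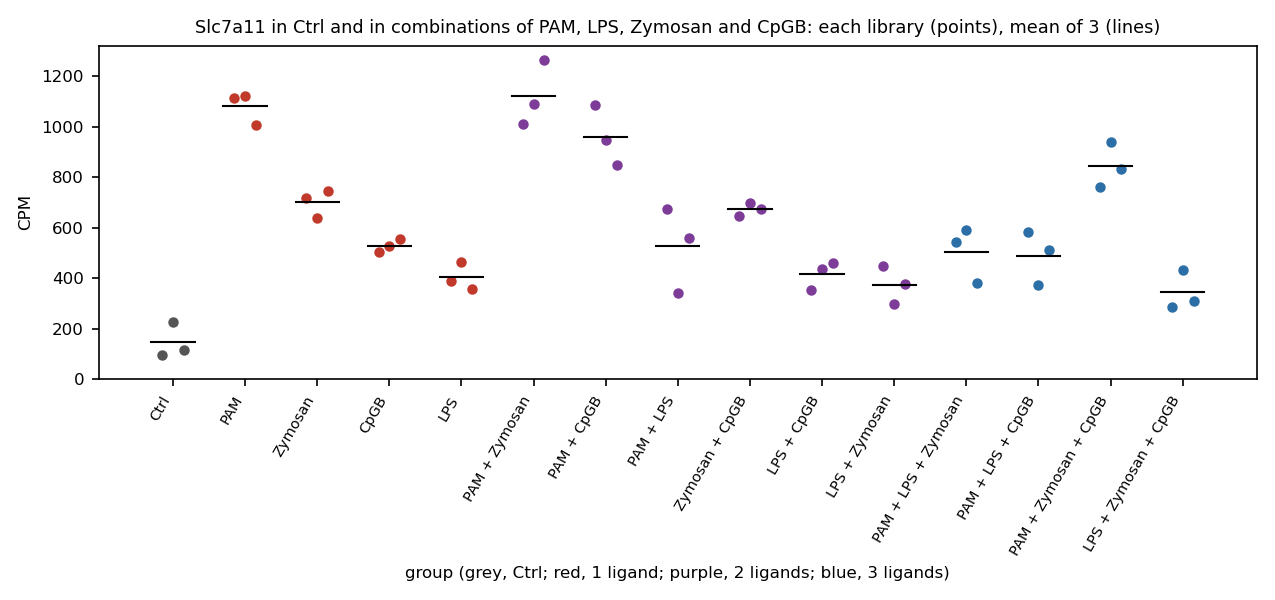
Level of Slc7a11 (CPM, linear axis from 0) in Ctrl (grey), PAM, Zymosan, CpGB and LPS alone (red), their 6 pairs (purple) and their 4 triplets (blue), with 1 point per library and a line at the mean of 3. PAM + Zymosan (1121 CPM) and PAM + CpGB (961 CPM) lie near PAM alone (1081 CPM), whereas PAM + LPS (525 CPM) and LPS + Zymosan (374 CPM) lie below PAM and Zymosan.

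Among the called interactions of the other genes, the strongest were those of Hmox1 with LPS + CpGB (-1.82 ± 0.38 log2, adjusted p = 7.18e-05) and of Srxn1 with LPS + Zymosan (-1.73 ± 0.34, 0.000142). Hmox1 read 152, 130 and 202 CPM in LPS + CpGB, under every library of LPS and of CpGB alone. The positive interaction was Sqstm1 in LPS + cGAMP (0.80 ± 0.27, adjusted p = 0.0361), and no interaction of the 9 genes was called positive when any 1 replicate of all groups or of Ctrl was left out. No gene of the 9 was above both single ligands in a pair by at least 1 log2 (0 of 189, where 0.353% of all tested genes were). Srxn1 in PAM + LPS was below both (91.1, 48.1 and 67.4 CPM, against 243, 292 and 328 with PAM and 141, 205 and 125 with LPS), where 0.0504% of all tested genes were. That call was lost without replicate 2 of all groups. With no fold threshold Hmox1 in LPS + CpGB was also below both, where 0.0999% of all tested genes were. No gene was above or below all 3 pairs in any of the 35 triplets (0 of 315 tests each, where 0.0115% and 0% of all tested genes were), and the counts were also 0 without the 4 libraries.

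The regulators of the pathway were measured too. Nfe2l2 mRNA was lower on average with Zymosan (-0.65 ± 0.039 log2, adjusted p = 1.82e-38), the ligand that raised 8 of the targets, and it changed by -0.44 ± 0.039 with LPS and -0.37 ± 0.039 with cGAMP, both under the threshold. With Zymosan alone it read 501 ± 26 CPM, against 537 ± 43 in Ctrl. Keap1 was higher with LPS (0.70 ± 0.093 log2, adjusted p = 9.42e-12) and was not called with Zymosan (-0.038 ± 0.099). Of 13 listed regulators 11 were tested: Zymosan called 4 higher and 1 lower, LPS 2 and 2, and cGAMP 3 higher and 0 lower. Over all tested genes Zymosan called 8.58% higher and 3.81% lower, LPS 14.9% and 11%, and cGAMP 14.3% and 10.3%, shares that also stand beside the lists that follow. Maff, a small Maf partner, rose with Zymosan (1.57 ± 0.11) and fell with LPS (-0.73 ± 0.13), Bach1, the repressor that competes for the same elements, fell with LPS (-0.93 ± 0.12), and Trim21 rose with LPS (1.09 ± 0.081). Acod1 rose most with cGAMP (0.87 ± 0.024) and LPS (0.69 ± 0.024) and was at -0.098 ± 0.024 with Zymosan. That is an average over backgrounds: with Zymosan alone Acod1 read 1164 ± 229 CPM (SD), above Ctrl at 413 ± 55.5, and with LPS alone 3894 ± 379. Atf4, whose protein drives Slc7a11 through amino acid response elements, was at 0.49 ± 0.061 with Zymosan, under the threshold.

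Of 30 other listed Nrf2 targets, 19 were tested: Zymosan called 1 higher, Procr (1.28 ± 0.045 log2), and none lower, LPS called 1 higher and 9 lower, and cGAMP called 6 lower. The median of the 19 was 0.21 log2 with Zymosan and -0.49 with LPS, against -0.03 and -0.02 for all tested genes. The heme transporter gene Slc48a1 (-1.29 ± 0.058) and catalase, Cat (-1.24 ± 0.073), fell most with LPS. Among 10 tested genes of glutathione metabolism, Zymosan called 1 higher, the glutathione synthetase gene Gss (1.20 ± 0.17), which had 0 counts in at least 1 group. Gss was lower with LPS (-1.35 ± 0.20), and the glutathione reductase gene Gsr was lower with cGAMP (-0.63 ± 0.052). Among 11 tested thioredoxin and peroxiredoxin genes Zymosan called 1 higher, Prdx6 (1.53 ± 0.042), and Prdx5 rose with PAM (0.52 ± 0.031). A count of 1 of 10 or 1 of 11 is near the 8.58% of all tested genes, and the medians with Zymosan were 0.021 log2 for glutathione and -0.031 for thioredoxin genes.

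Over the 64 group means, with all libraries in, the 36 pairs of genes had a median Pearson r of 0.749, from -0.0088 to 0.928, and 29 were above 0.5; all share the same libraries and depth. All 7 pairs under 0.5 involve Slc7a11: its r was 0.43 with Hmox1, 0.31 with Gclm and -0.0088 with Prdx1, and above 0.5 with Txnrd1 alone. Every pair among the other 8 genes was above 0.5. Srxn1 was the most shared neighbour: among 4501 genes with at least 20 CPM on average, it was in the 3 genes closest to Hmox1 (0.92), Nqo1 (0.81), Gclm (0.93), Gclc (0.89) and Txnrd1 (0.93). Txnrd1 was closest to Hvcn1 (0.95), the proton channel gene. The genes closest to Slc7a11 were Cxcl3, Fth1 and Tnip1 (0.93, 0.91 and 0.90), none of them of the 9. Prdx1 was closest to Pkm, Prdx6 and Pgk1 (0.88, 0.88 and 0.87), and Sqstm1 to Pgam1, Mif and Gdf15 (0.92, 0.91 and 0.90).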

How the data were processed

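Gene expression was measured in 64 groups of 3 libraries of mouse bone marrow-derived dendritic cells. The deposited table holds UMI counts per gene, not normalized; the authors used BWA 0.7.15 with mm10, per the submitters' processing notes. Groups follow the labels.

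The 9 genes and the other lists were chosen with earlier results of these data known. Genes passing edgeR's filterByExpr (4720 of 23481, 95.7% of UMIs) were fitted by quasi-likelihood (edgeR 4.0.16, R 4.3.3) with TMM scaling and 1 coefficient per group, leaving 128 residual degrees of freedom. Adjusted p-values are Benjamini-Hochberg over all tested genes in each contrast, and the joint test of a pair or triplet takes the weakest of its comparisons. Differences by background use log2 of CPM plus 2. Of each list, the text names up to 2 genes with the largest called rise and 2 with the largest called fall, beside Nfe2l2, Keap1, Acod1 and Atf4. Alternatives were RLE and total-count scaling, no filter, thinning to 46564 UMIs, DESeq2 1.42.0, a replicate block, leaving out each replicate, and, chosen after seeing the data, leaving out the shallowest library, or libraries that were the least like their own group and nearer another by over 0.04 (4 libraries) or 0.02 (6) in correlation. The scripts were tested on simulated data. Same-numbered libraries of different groups deviated together by a correlation of 0.0083, and the main fit did not pair samples by number. In shallow libraries a low correlation cannot exclude that same-numbered libraries share a source, which the labels do not give. Shallower libraries give less precise levels.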

Additional observations from a re-analysis of the deposited data

How the results depend on the processing

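Of 123 higher and 74 lower calls against Ctrl, the higher count stayed within 1.5 times under every alternative run (85 to 169). The lower count was 122 with total counts and 39 with no filter. It was 42 to 63 when 1 replicate of all groups or of Ctrl was left out. After thinning it was 76, without Nqo1 and Gclc, which were not tested there and held 1 and 38 of the 74 lower calls. The average effects gave 9 higher and 14 lower calls, which became 22 and 26 with no fold threshold, and the lower count was 9 after thinning. The 1 positive interaction became 2 with RLE, 3 with total counts, 4 after thinning and 0 with no filter, 0 with any replicate left out, 0 without the 4 libraries that stand apart, 0 without a wider 6, and 0 without Zymosan + SeV replicate 2. The 1 pair below both single ligands became 2 with total counts, 0 after thinning, 2 with no fold threshold and 0 to 2 with a replicate left out. Beyond the smaller samples or lower thresholds these settings use, the cause was not tested, except that the 5 lower average effects missing after thinning are of Nqo1 and Gclc, which were not tested there. With the replicate number as a block, the counts were 123 higher and 74 lower against Ctrl, 9 and 14 for average effects, 18 negative and 1 positive interactions and 1 pair below both. Of 316 alternative values for the 16 called single-ligand results, 288 kept direction and call, 28 lost the call and 0 reversed; of 384 for the 23 called average effects, 377 kept both and 7 lost the call. Of 930 values for the 47 single-ligand results not called, 38 gained the call and 65 changed sign, and of 673 for the 40 average effects not called, 11 gained it and 25 changed sign. Nqo1 and Gclc did not pass the filter after thinning, so the tallies of called results leave out 4 single-ligand and 7 average effects there, 5 of them lower. The 6 UMIs of Nqo1 in Ctrl limit what its single groups can show.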

Other observations

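Other gene groups near the pathway were measured over the same 22 backgrounds per ligand. Among 12 tested genes of heme and iron metabolism, Zymosan called 4 higher and 1 lower, LPS 1 higher and 9 lower, and cGAMP 0 higher and 5 lower. Over all tested genes Zymosan called 8.58% higher and 3.81% lower, LPS 14.9% and 11%, and cGAMP 14.3% and 10.3%. The median of the 12 was 0.37 log2 with Zymosan, -0.60 with LPS and -0.42 with cGAMP, against -0.031, -0.021 and -0.045 for all tested genes. Bach1, the heme-sensing repressor, rose with Zymosan (0.62 ± 0.11 log2, SE), Slc11a2, an iron transporter gene, rose with LPS (0.73 ± 0.055), and Alas1, the first enzyme of heme synthesis, fell with cGAMP (-1.23 ± 0.042). Among 11 tested genes of oxidant sources and superoxide dismutases, LPS called 3 higher and 2 lower (median -0.086 log2), cGAMP 2 and 4 (-0.20), and Zymosan 1 and 1 (0.0074). PAM called 3 higher and 1 lower (0.028), CpGB 3 and 0 (-0.00245), SeV 2 and 0 (-0.067), and HMW none. Over all tested genes PAM called 6.53% higher and 5.89% lower, CpGB 6.12% and 5.06%, and SeV 7.9% and 2.58%. Nos2, the inducible nitric oxide synthase gene, rose with LPS and had 0 counts in at least 1 group.

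Among 6 tested genes of the ATF4 response, Zymosan called 2 higher (median 0.48 log2), with Atf3 at 0.51 ± 0.033 log2, and cGAMP called 1, Ppp1r15a, at 1.56 ± 0.064. Among 8 tested autophagy receptor genes and partners, Zymosan called 2 higher (median 0.14 log2), with Gabarapl1 at 1.15 ± 0.084, and cGAMP called 1, Optn, at 1.17 ± 0.10. Over all tested genes Zymosan called 8.58% higher and cGAMP 14.3%, and the cGAMP counts of 1 of 6 and 1 of 8 are near that share. Txnip, which binds thioredoxin, fell with cGAMP (-0.76 ± 0.054). The lists share Bach1, Slc48a1 and Cat.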
